A study of Mus musculus with 6 samples.

Results

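This report describes the genes for the collagens and the proteoglycan that build basement membranes. The members were taken by name as the 6 collagen IV chains (Col4a1 to Col4a6), collagens XV (Col15a1) and XVIII (Col18a1) and perlecan (Hspg2), which makes 9 of the 34590 gene symbols in the table. The rule uses the gene names and no measured value, and all 9 symbols were found.

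RNA was sequenced from 3 wild-type host mice whose fat pads had been cleared of their own epithelium. In each of them WT.EGFP+ epithelium had been grafted into the left inguinal gland (gland number 4) and Adamts18-/-.EGFP+ epithelium into the right one. Genotype and side cannot be told apart. All donor epithelia expressed EGFP from a constitutive chicken beta-actin promoter, and the mutant allele lacks exons of Adamts18 that encode the catalytic site of this secreted protease. The stroma, vessels and fat were of host origin on both sides, and the age of the hosts at collection is not given in the sources used here.

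The total count was 54059023 to 71595924 in the WT libraries and 53875123 to 63307129 in the Adamts18-/- libraries, and 3 counts corresponded to 0.0430 to 0.0574 CPM (reads of a gene relative to the scaled total of its library). Adamts18 itself had 3.61, 9.92 and 6.803 CPM on the WT side of mice 1, 2 and 3 and 2.75, 4.87 and 3.29 CPM in their Adamts18-/- glands, lower in the mutant gland of each mouse (fold change 0.56, unadjusted p = 0.00922, adjusted p = 0.987, edgeR). By the labels the RNA came from epithelial cells sorted for GFP, but the 10 adipocyte markers summed to between 9567 and 27710 CPM and the 10 fibroblast markers to between 9429 and 13240 CPM, against 1411 to 2732 CPM for the 25 pan-epithelial markers, so the data go against that label and the libraries are called glands. Mouse 3 stood apart from mice 1 and 2 on the first principal component, which held 60.4% of the variance. Summed skeletal muscle markers were 340, 978 and 3197 CPM in the WT glands and 12510, 12610 and 2163 CPM in the Adamts18-/- glands, and their part in the results was not tested. In such bulk RNA, fewer cells of a type and less RNA per cell cannot be told apart.

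Basement membranes are thin sheets of matrix that underlie epithelia and vessels and wrap fat, muscle and nerve cells. Collagen IV chains join as trimers that crosslink into a network: the chains of Col4a1 and Col4a2 form the trimer found in nearly all basement membranes, those of Col4a5 and Col4a6 form a trimer known from epithelial and smooth muscle basement membranes, including that of the mammary duct, and those of Col4a3 and Col4a4 join with that of Col4a5 in few sites such as the kidney glomerulus. Perlecan is a large heparan sulfate proteoglycan that links the collagen and laminin networks and holds growth factors. Collagens XV and XVIII are related proteoglycans with collagen domains at the border between basement membrane and interstitial matrix, and both release anti-angiogenic fragments, that of collagen XVIII being endostatin.

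Between the genotypes, 1 of the 9 members differed at the thresholds used in the study, which are a fold change below 0.8 or above 1.25 together with an unadjusted p below 0.05. Of all 17345 genes tested, 3.01% passed. This was Col4a6, which was lower in the Adamts18-/- glands. Of all genes tested, 1.84% were lower and 1.17% were higher, and 0 of the 9 members were higher. All 9 members passed the filter on low counts. All 9 log2 fold changes were below 0, with a median of -0.10 against 0.0007 over all genes tested, of which 49.8% were below 0. That of Col18a1 was -0.0005, and several members followed each other across the glands, so these are not 9 separate signs. All 9 were also below 0 under RLE, upper quartile and library size scaling, but 2, 0 and 1 of the 9 were below 0 under scaling to the endothelial, myoepithelial and pan-epithelial lists. With mouse 1, 2 or 3 left out, 6, 9 and 4 of the 9 were below 0. The number was 8 without the mouse as a block, in separate linear models, with at least 10 counts in every library and with an offset for GC content and length. The median of the members depended on single mice, at -0.0102 without mouse 1, -0.246 without mouse 2 and 0.0077 without mouse 3, and it was -0.0473 without the mouse as a block and -0.0477 with an offset for GC content and length. Col4a6 was also the only member with a lower value in the mutant gland of all 3 mice, a pattern that 12.7% of all genes showed (10.8% were higher in all 3 mice and 23.4% went either way in all 3), and no member had groups that did not overlap, a pattern of 2.63% of all genes downward and 2.31% upward. By adjusted p, 0 members and 0 of all genes passed in the quasi-likelihood test of edgeR (Benjamini-Hochberg). At an unadjusted p under 0.05, 1 member and 3.86% of all genes passed. DESeq2 gave 71 genes with an adjusted p under 0.05, none of them a member. The 3 pairs are described as separate experiments, each with its own donor, so p-values measure the spread between these pairs.

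**Figure D1:**
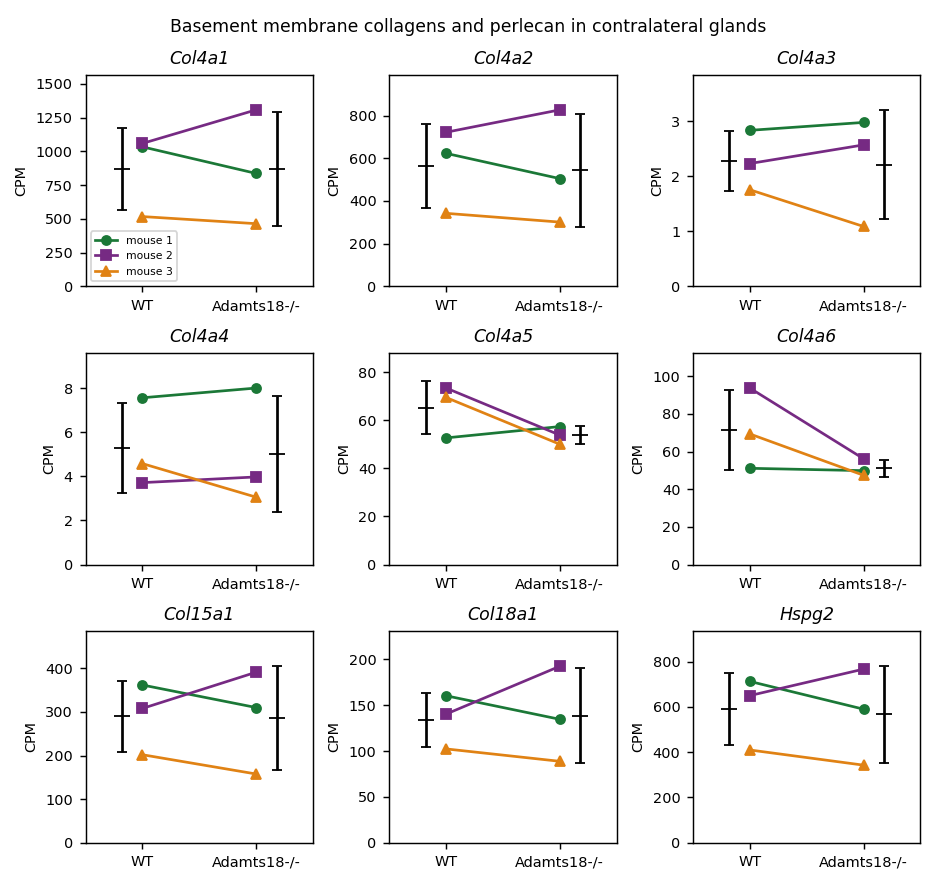
CPM of the 9 members (vertical axes, linear, each from 0) in the WT and Adamts18-/- gland of each mouse, joined by a line per mouse, with the mean ± SD of each group (n = 3) in black beside the points. The glands of mouse 3 are the lowest for Col4a1, Col4a2, Col15a1, Col18a1 and Hspg2, and Col4a6 is the member whose 3 lines all go down.

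Col4a1 and Col4a2, the chains of the ubiquitous trimer, were the most abundant of the collagen IV genes and did not pass the thresholds. Col4a1 had 1034, 1059 and 517 CPM on the WT side of mice 1, 2 and 3 and 837, 1308 and 465 CPM in their Adamts18-/- glands. The mutant gland was below the WT gland in mice 1 and 3 and above it in mouse 2, and the groups overlapped. The log2 fold change was -0.05 ± 0.16 (SE, n = 3 per group), which with its 95% interval of the fold change from 0.725 to 1.28 leaves changes of that size in either direction possible (unadjusted p = 0.754, adjusted p = 0.988, edgeR). Col4a2 had 623, 722 and 342 CPM in the WT glands and 505, 827 and 301 CPM in the Adamts18-/- glands. Its differences had the same signs, and its log2 fold change was -0.10 ± 0.14 (SE), with a 95% interval of the fold change from 0.731 to 1.195 (unadjusted p = 0.504, adjusted p = 0.987, edgeR).

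The pair kept a nearly fixed proportion. The ratio of Col4a1 to Col4a2 reads was 1.66, 1.47 and 1.51 in the WT glands and 1.66, 1.58 and 1.54 in the Adamts18-/- glands. On the log2 scale the ratio differed between contralateral glands by 0.05 ± 0.06 (SD, n = 3 mice), and an exact two-sided sign-flip permutation test over the mice gave p = 0.5, where the smallest p that 3 mice allow is 0.25. The genes lie head to head on chromosome 8 in the GRCm38 annotation (GENCODE M21), Col4a1 at chr8:11198423-11312826 on the minus strand and Col4a2 at chr8:11312805-11449287 on the plus strand, so that their first exons share 22 bases. The strand setting of the counting is not given in the sources used here. Without strand, reads in this shared stretch could not be assigned to either gene. RefSeq windows of the 250 bases before each start were GC-rich, with 74.4% G and C for Col4a1 and 73.6% for Col4a2 against a median of 52.4% over 32851 windows.

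Col4a5 and Col4a6, the chains of the epithelial and smooth muscle trimer, were much less abundant and were the members with the lowest fitted fold changes. Col4a6 had 51.1, 93.7 and 69.3 CPM on the WT side of mice 1, 2 and 3 and 49.9, 56.2 and 47.4 CPM in the Adamts18-/- glands. The mutant gland was lower in all 3 mice, by -0.04, -0.74 and -0.55 on the log2 scale, so that mouse 1 showed almost no difference, and the groups overlapped because the WT gland of mouse 1 was as low as the mutant glands. The log2 fold change was -0.44 ± 0.15 (SE, n = 3 per group), a fold change of 0.736 with a 95% interval from 0.559 to 0.970 (unadjusted p = 0.036, adjusted p = 0.987, edgeR). The call was lost in 9 of 17 alternatives and rested on mice 2 and 3: in edgeR the log2 fold change was -0.29 without mouse 2 (unadjusted p = 0.153, adjusted p = 0.895), -0.38 without mouse 3 (unadjusted p = 0.0761, adjusted p = 0.877), and -0.64 without mouse 1 (unadjusted p = 0.00642, adjusted p = 1). Without the mouse as a block it was -0.48 (unadjusted p = 0.0761, adjusted p = 1, edgeR), and with libraries scaled to the 25 pan-epithelial genes it was -0.0015 (unadjusted p = 0.996, adjusted p = 0.997, edgeR).

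Col4a5 had 52.7, 73.4 and 69.5 CPM in the WT glands and 57.4, 53.8 and 50.03 CPM in the Adamts18-/- glands. The mutant gland was the lower one in mice 2 and 3 and the higher one in mouse 1, and the groups overlapped. The log2 fold change was -0.27 ± 0.14 (SE), a fold change of 0.831 with a 95% interval from 0.641 to 1.08 (unadjusted p = 0.125, adjusted p = 0.987, edgeR). Without mouse 1 it was -0.46 with an unadjusted p of 0.0172, past the thresholds. The ratio of Col4a5 to Col4a6 reads was 1.03, 0.783 and 1.002 in the WT glands and 1.15, 0.958 and 1.06 in the Adamts18-/- glands. It was higher in the mutant gland of 3 of 3 mice, by 0.18 ± 0.11 on the log2 scale (SD, n = 3), with an exact two-sided sign-flip permutation p of 0.25, the smallest that 3 mice allow.

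Col4a5 and Col4a6 are also a head-to-head pair, on the X chromosome, with Col4a5 at chrX:141475385-141689234 on the plus strand and Col4a6 at chrX:141165403-141474076 on the minus strand and 1308 bases between their starts (GENCODE M21, GRCm38). The ends of this stretch next to each start are shown because these genes varied together across the glands and apart from the other members. They are taken from RefSeq windows (GRCm38.p6) and run 5′ to 3′ toward the gene's start, chrX:141475169-141475384 on the plus strand for Col4a5 and chrX:141474077-141474326 on the minus strand for Col4a6. Capitals mark GC boxes (GGGCGG or CCGCCC) and CCAAT boxes (CCAAT or ATTGG), searched on both strands.
Col4a5: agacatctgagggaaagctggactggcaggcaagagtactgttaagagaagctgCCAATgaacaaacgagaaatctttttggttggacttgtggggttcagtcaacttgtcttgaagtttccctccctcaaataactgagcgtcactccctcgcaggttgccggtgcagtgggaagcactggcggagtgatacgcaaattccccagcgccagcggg
Col4a6: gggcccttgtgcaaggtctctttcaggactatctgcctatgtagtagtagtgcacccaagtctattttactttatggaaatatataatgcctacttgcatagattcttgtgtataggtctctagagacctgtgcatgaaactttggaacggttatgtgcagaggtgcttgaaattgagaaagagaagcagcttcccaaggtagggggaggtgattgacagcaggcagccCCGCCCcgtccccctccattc
The Col4a5 stretch holds 1 CCAAT box, and the Col4a6 stretch holds 1 GC box close to the start. The Col4a5 window as RefSeq sets it runs 34 bases further, into what GENCODE counts as the first exon, and has 1 GC box there, which is not shown. Of all 32851 RefSeq windows of 250 bases, 32.7% hold a GC box and 33.8% a CCAAT box, so these matches describe the windows and set neither gene apart. The G and C content of the full windows was 54.0% for Col4a5 and 47.6% for Col4a6, near the median of all windows, unlike that of Col4a1 and Col4a2. RefSeq windows were found for 8 of the 9 members, and that of Hspg2, with 70.0% G and C, held 5 GC boxes.

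Col4a3 and Col4a4, the chains known from the glomerulus, were near the bottom of the expressed genes. Col4a3 had 2.84, 2.24 and 1.76 CPM in the WT glands and 2.98, 2.57 and 1.09 CPM in the Adamts18-/- glands, from 67 to 198 reads per library. Col4a4 had 7.57, 3.72 and 4.58 CPM in the WT glands and 8.01, 3.98 and 3.06 CPM in the Adamts18-/- glands. For both genes the mutant gland was slightly higher in mice 1 and 2 and lower in mouse 3, and the groups overlapped. Their log2 fold changes were -0.13 ± 0.24 and -0.13 ± 0.20 (SE), with unadjusted p of 0.629 and 0.537 in edgeR, and the 95% intervals of the fold change, 0.589 to 1.43 and 0.638 to 1.31, were the widest of the 9 members. The log2 ratio of Col4a3 to Col4a4 differed by -0.0003 ± 0.10 (SD, n = 3 mice) between contralateral glands (exact sign-flip permutation p = 1). The genes face each other on chromosome 1, Col4a3 at chr1:82586921-82722059 on the plus strand and Col4a4 at chr1:82448423-82586849 on the minus strand, with 71 bases between their starts.

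Per kilobase of exon, the chains of the ubiquitous trimer made up most of the collagen IV transcripts in every gland. Col4a1 took 52.3% ± 3.34 and Col4a2 38.2% ± 1.52 of collagen IV reads per kilobase in the WT glands (SD, n = 3), and 53.9% ± 2.31 and 38.1% ± 1.25 in the Adamts18-/- glands. Col4a3 and Col4a4 together took 0.2004% to 0.516% in the 6 glands. Col4a5 and Col4a6 together took 5.75%, 8.27% and 13.5% on the WT side of mice 1, 2 and 3 and 7.24%, 4.77% and 11.02% in the Adamts18-/- glands. Their share was highest in both glands of mouse 3, in which Col4a1 and Col4a2 were low, and it was higher in the mutant gland of mouse 1 and lower in those of mice 2 and 3. In level per length, Col4a5 and Col4a6 overlapped in the WT glands, at 9.70 ± 1.64 and 8.95 ± 2.68 CPM per kilobase (SD, n = 3). In the Adamts18-/- glands Col4a5 was above Col4a6 without overlap, at 8.001 ± 0.547 (7.45 to 8.54) and 6.41 ± 0.569 CPM per kilobase (5.94 to 7.05), a description with no test. The order of this pair depended on the length used. With the longest transcript as length, their mean shares were 4.57% and 4.8% in the WT glands, against 4.83% and 4.35% with all exons. In the Adamts18-/- glands they were 4.05% and 3.74%, against 4.28% and 3.395%. Overlap between single glands was not tested with that length.

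**Figure D2:**
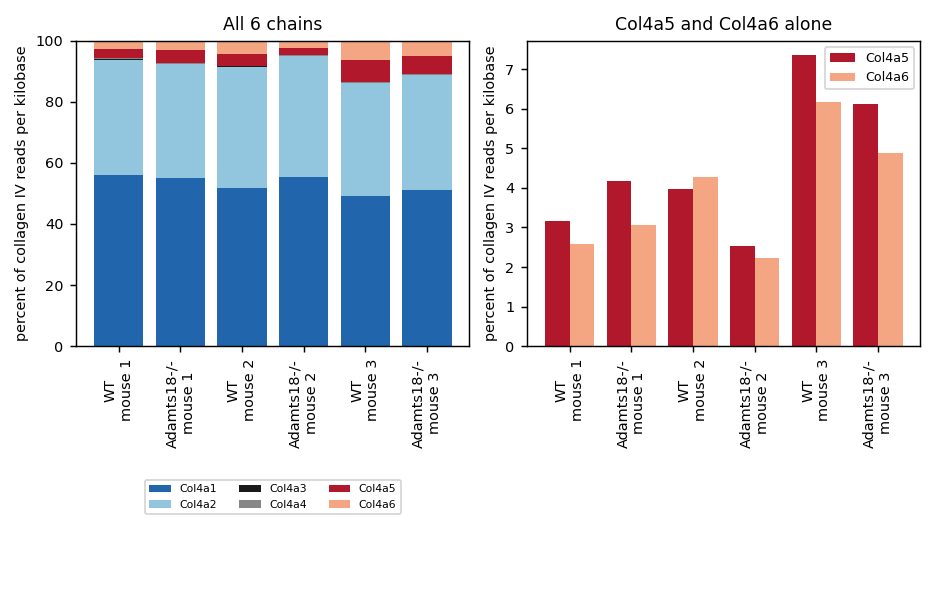
Share of each collagen IV chain in the collagen IV reads per kilobase of exon (percent, linear axes from 0), 1 bar per gland in the left panel and 1 pair of bars per gland in the right panel. Col4a1 and Col4a2 fill between 86.0% and 95.03% of each bar, and Col4a5 and Col4a6 together reach 13.5% in the WT gland of mouse 3.

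Over all members, the order of levels per length in the WT glands was Col4a1 (117 ± 41.0 CPM per kilobase), Col4a2 (85.0 ± 29.8), Col15a1 (45.8 ± 12.8), Hspg2 (41.3 ± 11.2), Col18a1 (19.1 ± 4.198), Col4a5, Col4a6, Col4a4 (0.499 ± 0.190) and Col4a3 (0.229 ± 0.0543; SD, n = 3). Neighbours in this order overlapped across mice except Hspg2 and Col18a1, Col18a1 and Col4a5, Col4a6 and Col4a4, and Col4a4 and Col4a3. Within each single WT gland, however, the order held for all neighbours except Col4a5 and Col4a6. In the WT gland of mouse 2 Col4a6 was above Col4a5, at 11.75 and 10.93 CPM per kilobase. With the longest transcript as length, Col4a6 had a higher mean share of collagen IV than Col4a5 in the WT glands. Among the 16853 expressed genes with an exon length, Col4a1 ranked 305 and Col4a3 ranked 15291 in the WT glands.

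Col15a1 and Col18a1, the proteoglycan collagens, did not pass the thresholds. Col15a1 had 362, 308 and 202 CPM in the WT glands and 310, 391 and 158 CPM in the Adamts18-/- glands. Col18a1 had 160, 140 and 102 CPM in the WT glands and 135, 193 and 88.9 CPM in the Adamts18-/- glands. Both were lower in the mutant gland of mice 1 and 3 and higher in that of mouse 2, and for both the groups overlapped. The log2 fold change of Col15a1 was -0.08 ± 0.16 (SE), with a 95% interval of the fold change from 0.705 to 1.27 (unadjusted p = 0.65, edgeR). That of Col18a1 was -0.0005 ± 0.16 (SE), with an interval from 0.745 to 1.34 (unadjusted p = 0.997, edgeR), although its single mice differed by -0.25, 0.46 and -0.20. In GRCm38, Col15a1 lies at chr4:47208161-47313167 on the plus strand and Col18a1 at chr10:77052178-77166548 on the minus strand.

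Hspg2, which encodes perlecan, lies at chr4:137468769-137570630 on the plus strand and had 713, 650 and 410 CPM in the WT glands and 590, 767 and 343 CPM in the Adamts18-/- glands. The mutant gland was again the lower one in mice 1 and 3 and the higher one in mouse 2, and the groups overlapped. The log2 fold change was -0.10 ± 0.14 (SE), with a 95% interval of the fold change from 0.719 to 1.22 (unadjusted p = 0.531, adjusted p = 0.987, edgeR).

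**Figure D3:**
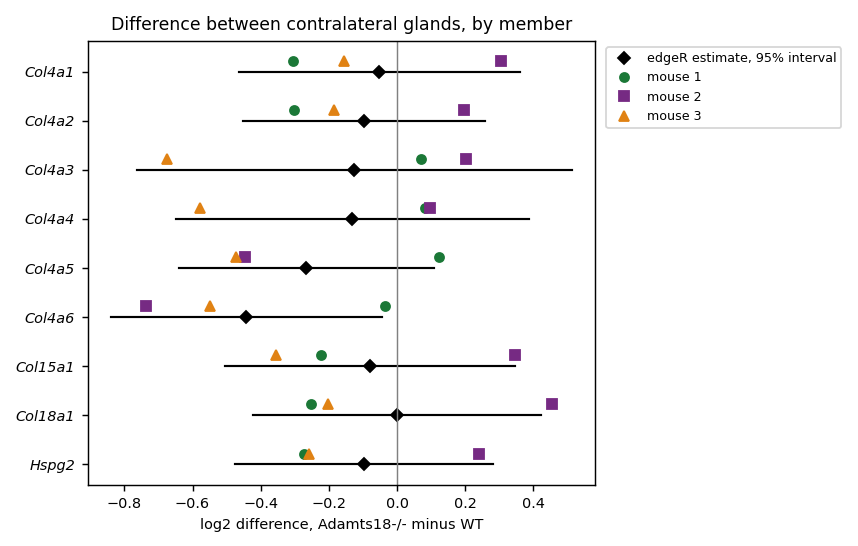
Log2 difference between the Adamts18-/- and the WT gland of each member (horizontal axis), with the edgeR estimate and its 95% interval in black and the 3 mice as coloured symbols above it. The interval of Col4a6 lies below 0, between -0.84 and -0.04, and those of the other 8 members include 0.

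The members thus varied in different ways across the glands. Col4a1, Col4a2, Col15a1, Col18a1 and Hspg2 followed each other over the 6 glands, with Pearson correlations of log2 CPM between 0.939 and 0.994 for their pairs (6 glands from 3 mice, with the glands of a mouse sharing a host, given as a description). Col4a5 and Col4a6 had a correlation of 0.924 with each other and between -0.0893 and 0.302 with those 5 genes. Mouse identity took 81.5% to 95.2% of the variance of log2 CPM in the 5 genes and 82.7% and 89.0% in Col4a3 and Col4a4, but 14.6% in Col4a5 and 40.0% in Col4a6. Genotype took 41.2% and 41.3% of the variance in Col4a5 and Col4a6 and at most 1.86% in the other 7 members. The rest, due to neither mouse nor genotype, was 44.3% in Col4a5, more than its genotype share, and 18.7% in Col4a6. The mouse share rested in part on mouse 3: without it the median over the 9 members was 50.1% in place of 88.8%.

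In mouse 3 the WT gland had 0.494 times the mean CPM of mice 1 and 2 for Col4a1, 0.509 times for Col4a2, 0.603 times for Col15a1, 0.681 times for Col18a1 and 0.602 times for Hspg2. For Col4a5 and Col4a6 the same ratio was 1.10 and 0.958. Markers of lymphocytes were also different in mouse 3: the 8 B cell markers summed to 133 CPM in its WT and 746 CPM in its Adamts18-/- gland, against 9.14 to 16.6 CPM in mice 1 and 2, and the 9 T cell markers to 219.6 and 592 CPM, against 40.6 to 85.1 CPM. Their part in the results was not tested. Without mouse 3 the log2 fold changes between genotypes were 0.0077 for Col4a1, -0.0458 for Col4a2, 0.07 for Col15a1, 0.11 for Col18a1 and -0.0088 for Hspg2, and none passed the thresholds.

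**Figure D4:**
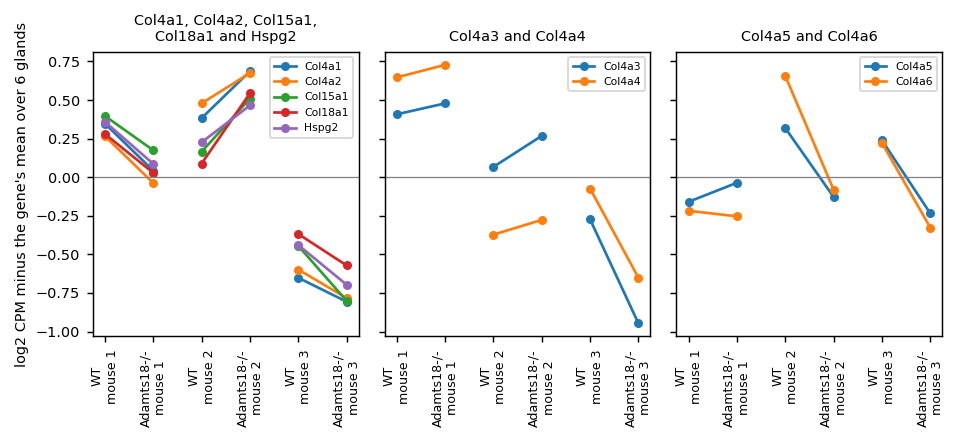
Log2 CPM of each member minus that gene's mean over the 6 glands (vertical axis, the same in the 3 panels), with the WT and Adamts18-/- gland of a mouse joined by a line. The 5 genes of the left panel follow each other and lie below 0 in both glands of mouse 3, whereas Col4a5 and Col4a6 lie above 0 in the WT glands of mice 2 and 3.

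Markers of some other cell types moved with some of the members. The 12 endothelial markers (highest: Pecam1, an adhesion molecule of endothelial cells) summed to 1360, 1485 and 984 CPM in the WT glands and 1170, 1518 and 831 CPM in the Adamts18-/- glands, lower in the mutant gland of mice 1 and 3 and slightly higher in that of mouse 2. The 7 pericyte markers (highest: Rgs5) summed to 741, 774 and 514 CPM and to 662, 837 and 433 CPM, and the 10 adipocyte markers (highest: Car3) to 26510, 24790 and 12090 CPM and to 24140, 27710 and 9567 CPM. These sums had the same signs by mouse as Col4a1, Col4a2, Col15a1, Col18a1 and Hspg2. So did the sum of the 8 Schwann cell markers, with log2 differences of -0.33, 0.39 and -0.67 in mice 1, 2 and 3. The fibroblast sum, with 0.04, 0.42 and 0.12, and the macrophage sum, with 0.09, 0.20 and -0.02, did not. Of these endothelial, pericyte and adipocyte markers, 0 were lower and 0 were higher at the thresholds, and none was at 0 in any gland. Relative to the endothelial sum of the same gland, Hspg2, Col18a1, Col15a1, Col4a2 and Col4a1 ranged 1.27-, 1.34-, 1.40-, 1.57- and 1.64-fold over the 6 glands. For their CPM these ranges were 2.24-, 2.17-, 2.48-, 2.75- and 2.82-fold. Col4a3 and Col4a6 ranged 1.94-fold and 1.90-fold relative to that sum. Col4a4 and Col4a5 ranged wider than in CPM, at 2.74-fold and 1.99-fold against 2.62-fold and 1.47-fold. Relative to the adipocyte sum, the same 5 genes ranged 1.47-, 1.66-, 1.34-, 1.505- and 1.40-fold. Col4a4, Col4a5 and Col4a6 again ranged wider than in CPM, at 2.64-, 2.96- and 2.98-fold, and Col4a3 ranged 1.61-fold. Relative to the myoepithelial sum, Hspg2, Col18a1, Col15a1, Col4a2 and Col4a1 also ranged less than in CPM, at 1.91-, 2.02-, 2.12-, 1.98- and 2.07-fold. Relative to the pan-epithelial sum they ranged wider, at 3.62-, 3.64-, 3.75-, 4.68- and 4.90-fold.

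The 10 myoepithelial markers (highest: Acta2, smooth muscle actin) summed to 1316, 2241 and 1331 CPM in the WT glands and 1064, 1628 and 886 CPM in the Adamts18-/- glands, lower in the mutant gland of all 3 mice, and 9 of the 10 were lower at the thresholds. The 25 pan-epithelial markers (highest: Krt19, a keratin) summed to 1860, 2398 and 2732 CPM and to 1817, 1411 and 1907 CPM, and 7 of the 25 were lower. The 12 luminal markers summed to 1422, 1640 and 1817 CPM and to 1317, 1069 and 1177 CPM, with 5 of the 11 tested lower, and Wap and Lalba, which encode milk proteins, stayed under 1 CPM in every gland. Krt8, Krt18 and Elf5 stand in both the luminal and the pan-epithelial list and were lower, so the sums and counts of these lists are not separate. Col4a6 moved with the pan-epithelial sum: it differed by -0.04, -0.74 and -0.55 in mice 1, 2 and 3, and the sum by -0.03, -0.77 and -0.52. Relative to that sum, Col4a6 ranged 1.603-fold over the 6 glands, and relative to the myoepithelial sum 1.55-fold, against 1.98-fold for its CPM, whereas Col4a5 ranged 1.501-fold relative to the pan-epithelial sum and 1.47-fold in CPM. The part of these cell types in the members' values was not tested.

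**Figure D5:**
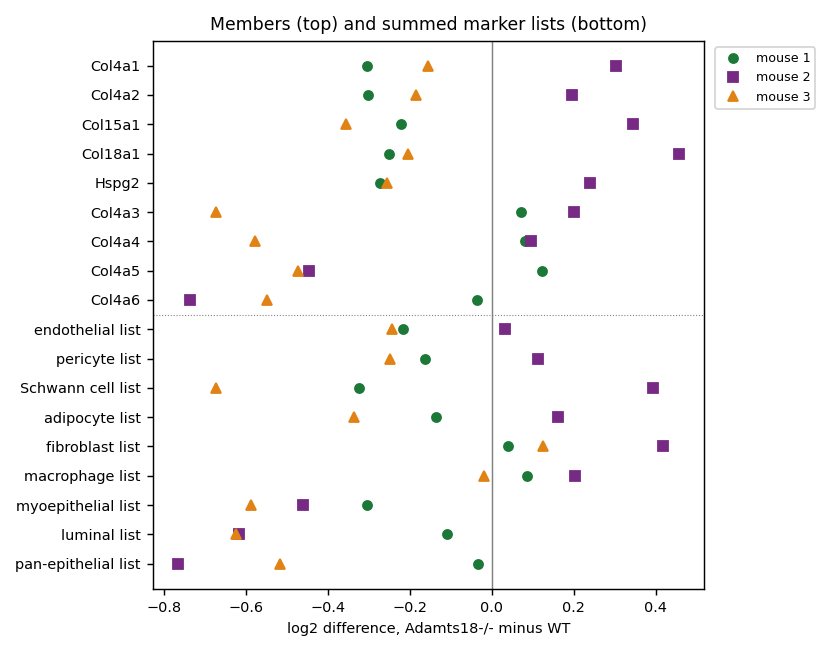
Log2 difference between the Adamts18-/- and the WT gland of each mouse (horizontal axis) for the 9 members (above the dotted line) and for the summed CPM of marker lists (below it), with 1 symbol per mouse. The myoepithelial, luminal and pan-epithelial lists lie below 0 in all 3 mice, as does Col4a6, whereas the endothelial, pericyte, Schwann cell, adipocyte, fibroblast and macrophage lists lie above 0 in mouse 2.

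The genes whose log2 CPM was most like that of Col4a1, the member with the highest mean CPM, over the 6 glands were Ipo9 (Pearson r = 0.999), Arhgap31 (0.998), Drosha (0.997), Prodh (0.997) and Cdh23 (0.996), and none of these 5 passed the thresholds. Among those most like Col4a6, the member with the smallest p, were Ltbp2 (0.996), Ccbl1 (0.994), Cdh10 (0.990) and Ntf5 (0.989). Ltbp2, which encodes a matrix protein of elastic microfibrils, was lower in the Adamts18-/- glands (log2 fold change -0.55, unadjusted p = 0.0251, adjusted p = 0.987, edgeR), as were Cdh10 (-1.03) and Ntf5 (-0.65). Ccbl1 did not pass the thresholds (-0.17, unadjusted p = 0.117, edgeR). These genes were picked for likeness to Col4a6 in the same glands, so their direction follows from the choice and adds no support. With 6 points from 3 mice, these likenesses are a description.

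Genes that act with the members were read from 5 lists with 87 genes tested, of which 5 were lower and 0 higher at the thresholds. Of all genes tested, 1.84% were lower and 1.17% higher, and 49.8% had a log2 fold change below 0. Of the genes that fold, secrete and crosslink collagen chains, 20 were tested and 0 passed in either direction, with 8 log2 fold changes below 0 and a median of 0.05. Among them Serpinh1, the collagen chaperone, had a mean of 447 ± 31.5 CPM in the WT and 461 ± 69.6 CPM in the Adamts18-/- glands, and Pxdn, which forms the sulfilimine crosslinks of collagen IV, had 254 and 241 CPM on average. Plod2, a lysyl hydroxylase, had 53.8 and 69.7 CPM on average, higher in the mutant gland of all 3 mice, with an unadjusted p of 0.0508 in edgeR that missed the threshold. These 3 were singled out with their values known. Of the 18 genes that assemble and edit heparan sulfate, the chains carried by perlecan, 0 passed in either direction, with 12 log2 fold changes below 0 and a median of -0.04. Among them Xylt1, singled out with its values known, had 2.89 and 3.76 CPM on average (unadjusted p = 0.166, edgeR). It was higher in the mutant gland of all 3 mice without overlap of the groups, a pattern of 2.31% of all genes.

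The other structural genes of the basement membrane held most of the calls. Of 14 laminin chains, nidogens and agrin, 4 were lower and 0 higher, 12 log2 fold changes were below 0, and the median was -0.16. They included the laminin chains Lama3 (log2 fold change -0.48 ± 0.07 SE, unadjusted p = 0.00136), Lama1 (-0.46 ± 0.13, unadjusted p = 0.0165) and Lamb3 (-0.38 ± 0.08, unadjusted p = 0.00672) by edgeR, each with an adjusted p of 0.987. Each was lower in the mutant gland of all 3 mice, and the groups overlapped. The chains of Lama3 and Lamb3 are known from the laminins of epithelial basement membranes. Nid1, which encodes nidogen-1, the linker between laminin and collagen IV, had 809 and 838 CPM on average, and Lamc1 had 560 and 535 CPM, and neither passed. Of the 16 receptors, 1 was lower, the laminin-binding integrin subunit Itga3 (56.9 and 42.5 CPM on average, log2 fold change -0.42 ± 0.07 SE, unadjusted p = 0.00268, edgeR), and 14 log2 fold changes were below 0, with a median of -0.11. The collagen receptor Ddr1 (fold change 0.818, unadjusted p = 0.00804, edgeR) and Lama5 (0.842, unadjusted p = 0.0194, edgeR) missed only the fold threshold. Both were lower in all 3 mice without overlap of the groups, a pattern of 2.63% of all genes, with an adjusted p of 0.987. Of the 19 proteases and inhibitors tested, 0 passed, with 13 log2 fold changes below 0 and a median of -0.02. Among these genes Nid1, Lamc1, Ddr1 and Lama5 were singled out with their values known, and Kdr stands in both the receptor list and the endothelial list. In the fit without the mouse as a block, and with libraries scaled to the pan-epithelial genes, 0 of the 87 genes were lower.

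Scalings to marker lists shifted all genes. Scaling to the pan-epithelial genes moved the median of all genes to 0.44, to the myoepithelial genes to 0.45 and to the endothelial genes to 0.14. The members shifted with them, to medians of 0.34, 0.35 and 0.05 in these 3 fits. A change of scaling moves all genes nearly alike, so these fits cannot test the gap between the members and all genes.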

How the data were processed

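RNA was extracted with miRNeasy from 6 glands of 3 mice and read as 85 bp single-end reads. The deposited values are whole-number read counts per gene symbol that the authors made without normalization. The submitters' processing notes name bcl2fastq 2.18, TopHat2 2.0.11, featureCounts 1.6.2, edgeR and the mm9 build, without roles or settings. Coordinates here come from GENCODE M21 (GRCm38) and promoter windows from RefSeq (GRCm38.p6).

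Samples were grouped and paired by mouse from the labels. Contralateral glands of mice 1, 2 and 3 deviated together from the group means (r = 0.512, 0.505 and 0.639 across genes). These r do not test the pairing, because mouse 3 stood apart and no r between mice was computed beside them. By chi-square of counts per degree of freedom, the Adamts18-/- glands of mice 1 and 2 differed by 42.1 and their WT glands by 70.4. The 2 glands of mouse 1 differed by 95.2 and those of mouse 3 by 100. The test was the quasi-likelihood test of edgeR 4.0.16 (R 4.3.3) with TMM scaling, filterByExpr and terms for mouse and genotype. Benjamini-Hochberg adjustment ran over 17345 genes. CPM used the TMM factors, and log2 CPM a prior count of 2. SE was the log2 fold change divided by the square root of F. Levels per length used the union of exons, available for 31417 of 34590 symbols. Code was tested on simulated data.

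The text names the 9 members, Adamts18, genes of 5 pathway lists that passed the thresholds, the 5 genes most like the most abundant member and the 5 most like the member with the smallest p, and the most abundant gene of a marker list. Of the genes that this rule selects, 2 are not reported here and stayed in the fits and counts. Of 224 symbols in the lists, 223 were found, 6 of them under older names. The members, lists and tests were chosen with earlier results of these data known. Alternatives were DESeq2 1.42.0, limma-voom (limma 3.58.1), separate linear models on log2(CPM + 1), a fit without the block, RLE, upper quartile, library size and pan-epithelial scaling, other filters, each mouse left out, an offset for GC content and length, and a log2 threshold of 0.5. Scaling to the myoepithelial and endothelial lists was added after seeing the data. Differences between any pair of libraries exceeded sampling noise.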

Additional observations from a re-analysis of the deposited data

How the results depend on the processing

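Over the 9 members and 17 alternatives each (153 log2 fold changes), 108 kept their direction and their side of the thresholds, and 36 changed sign, 24 of them under the 3 scalings to marker lists and 8 when a mouse was left out. Calls were lost 9 times, each time for Col4a6, and gained 2 times, for Col4a5 without mouse 1 and for Col18a1 under myoepithelial scaling. By adjusted p, 0 members passed in any alternative. The 9 alternatives in which Col4a6 lost its call are those listed here with 0 members lower, and its log2 fold change reached 0.0105 under myoepithelial scaling.

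The number of members lower was 0 without the replicate block, in the separate linear models, with the GC and length offset, under pan-epithelial, myoepithelial and endothelial scaling and above an absolute log2 fold change of 0.5, and between 0 and 2 when a mouse was left out (Col4a5 and Col4a6 without mouse 1, none without mouse 2 or mouse 3). Under myoepithelial scaling 1 member, Col18a1, was higher. For all genes, the number lower was 125 without the block, 93 in the linear models, 28 under both pan-epithelial and myoepithelial scaling, 83 under endothelial scaling, 189 above 0.5, and 214 to 481 with a mouse left out. The number higher was 340 in DESeq2, 345 in limma-voom, 37 in the linear models, 352 with no filter, 1897 under pan-epithelial, 10653 under myoepithelial and 595 under endothelial scaling, and 182 to 581 with a mouse left out. For the pathway genes, the number lower was 0 without the block, 3 in the linear models, 0 under pan-epithelial and myoepithelial scaling, 1 under endothelial scaling, 0 above 0.5, and 3 to 6 with a mouse left out. The number higher was 1 in DESeq2, in limma-voom and with no filter, 8 under pan-epithelial, 55 under myoepithelial and 3 under endothelial scaling, and 0 to 3 with a mouse left out.

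Log2 fold changes that changed sign were, under pan-epithelial, myoepithelial and endothelial scaling, 0.387, 0.3999 and 0.0913 for Col4a1, 0.342, 0.354 and 0.0457 for Col4a2, 0.306, 0.322 and 0.0146 for Col4a3, 0.302, 0.318 and 0.0114 for Col4a4, 0.358, 0.373 and 0.0652 for Col15a1, 0.437, 0.451 and 0.143 for Col18a1, and 0.341, 0.355 and 0.0461 for Hspg2. For Col4a5 they were 0.17 and 0.19 under the first and second of these. With a mouse left out the values ran from -0.230 to 0.0736 for Col4a1, -0.245 to 0.0047 for Col4a2, -0.298 to 0.145 for Col4a3, -0.246 to 0.0971 for Col4a4, -0.290 to 0.0692 for Col15a1 and -0.228 to 0.125 for Col18a1, the lowest in each case without mouse 2. Col18a1 was also at 0.0457 without the block, 0.0004 in the linear models, 0.0005 with at least 10 counts in every library and 0.0704 with the GC and length offset. The log2 ratio of Col4a3 to Col4a4 differed by -0.0532 to 0.0473 with a mouse left out. With the longest transcript as length, Col4a2 took 36.0% of collagen IV in both groups (36.02% in WT and 35.97% in Adamts18-/- glands). The mouse took a median of 50.1% to 88.1% of the variance with a mouse left out, the least without mouse 3. The cause of these shifts was not tested. With 3 mice and a largest SE of 0.24 among the members, changes smaller than the 95% intervals could not be told from 0.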
